A study of Rattus norvegicus with 18 samples.

Results

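The 9 enzymes described here carry out mitochondrial fatty acid oxidation: the carnitine palmitoyltransferases Cpt1a, Cpt1b and Cpt2, the acyl-CoA dehydrogenases Acadm, Acadl and Acadvl, the trifunctional protein subunits Hadha and Hadhb, and the thiolase Acaa2. They were taken by name, as the gene probes of the array that carry one of these symbols. All 9 were found, on 15 probes of 41012, and all 9 passed the filter on dim probes, so that they are 9 of the 23606 genes and transcripts tested.

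Long-chain fatty acids enter mitochondria as carnitine esters. Carnitine palmitoyltransferase I, in the outer membrane, makes the ester and is the regulated step of the pathway. Cpt1a is its liver-type form, also found in immune cells and fibroblasts, and Cpt1b its form in muscle and fat. Carnitine palmitoyltransferase II turns the ester back into acyl-CoA inside, where the dehydrogenases, the trifunctional protein and the thiolase shorten the chain in a repeated cycle. The pathway is abundant in muscle, heart, liver and fat, and several of its genes are known targets of the fatty acid receptors of the PPAR family. Synovium overlies the fat pad of the knee and lies next to muscle and cartilage, so a dissected sample can hold all of these.

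The study hybridised RNA of knee synovial tissue from male Lewis rats, aged 6 to 8 weeks and weighing 200 ± 20 g, to single-colour arrays, and its design text asks which constituents of the herbal formula WTD act on a cold form of arthritis. The 18 arrays analysed here fall into 6 groups of 3: untreated normal controls, adjuvant-induced arthritis (AIA), an AIA-cold model, the AIA-cold model given WTD (AIA-cold-WTD), an AIA-hot model, and the AIA-hot model given WTD (AIA-hot-WTD). All groups other than the controls carry the adjuvant arthritis. The sources used here do not give the procedure behind the cold and hot forms, the dose of WTD, or whether an array is 1 of the 6 rats named per group, so the p-values measure the spread between these arrays, which may be technical in part. The titles of the WTD arrays also carry letters that the labels do not explain (G, Z and Z in AIA-cold-WTD, where AIA-cold-WTD 1 is the G array, and D, G and Z in AIA-hot-WTD), so whether a WTD group holds 1 treatment is not known. Arrays are numbered within a group only to name them.

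Control 1 stood apart from the other arrays. Its 75th percentile of signal was 68.9 units against 201 to 331 on the other 17 arrays, and 43.3% of its probes were well above background against 56.4% to 76.6%. Its cartilage marker level was also high, at 4.63 on the log2 scale, where the lowest array of the control group lay at -2.19. The arrays lay on 5 slides, and no slide held both AIA-cold and control, AIA or AIA-hot arrays, so slide and group cannot be told apart in those comparisons. The same holds for AIA-cold-WTD against control. AIA-hot and AIA-hot-WTD arrays shared no slide with control either, and were tied to it only through slides shared with other groups. Markers of synovial fibroblasts were present throughout, with 9 of 10 measured and all 9 well above background in every group. All values below are log2 signals relative to the 75th percentile of the array, and they can be compared between arrays for a gene but not between genes.

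The region upstream of the transcription start was taken from RefSeq (assembly GRCr8) for 6 members, Cpt1a, Cpt2, Acadm, Acadvl, Hadha and Hadhb. It is shown for 4 of them because Cpt1a and the other enzymes followed different courses over the arrays, and because Hadha and Hadhb, which encode subunits of 1 protein, are read from the same stretch in opposite directions. Each sequence holds the 250 bases before the start site, 5′ to 3′ on the strand of the gene, with capitals marking AGGTCA (the nuclear receptor motif), CCAAT and GGGCGG (the GC box) or their reverse complements. The positions are chr1:209995910-209996159 on the plus strand for Cpt1a, chr5:127910819-127911068 on the minus strand for Cpt2, chr10:55236706-55236955 on the minus strand for Acadvl and chr6:31907551-31907800 on the plus strand for Hadha.
Cpt1a: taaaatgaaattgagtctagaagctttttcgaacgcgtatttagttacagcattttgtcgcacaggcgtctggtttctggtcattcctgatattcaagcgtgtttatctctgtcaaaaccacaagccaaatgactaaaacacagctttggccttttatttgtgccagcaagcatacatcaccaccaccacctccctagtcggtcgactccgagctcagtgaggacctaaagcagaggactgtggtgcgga
Cpt2: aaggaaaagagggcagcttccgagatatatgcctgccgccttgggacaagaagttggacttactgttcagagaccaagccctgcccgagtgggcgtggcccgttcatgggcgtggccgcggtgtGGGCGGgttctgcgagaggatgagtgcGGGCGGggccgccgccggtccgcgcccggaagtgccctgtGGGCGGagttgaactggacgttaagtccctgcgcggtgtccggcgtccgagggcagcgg
Acadvl: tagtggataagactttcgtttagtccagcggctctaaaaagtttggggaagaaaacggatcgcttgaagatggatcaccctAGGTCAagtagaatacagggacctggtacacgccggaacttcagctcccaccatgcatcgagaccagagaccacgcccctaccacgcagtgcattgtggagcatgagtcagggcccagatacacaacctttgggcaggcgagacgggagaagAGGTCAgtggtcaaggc
Hadha: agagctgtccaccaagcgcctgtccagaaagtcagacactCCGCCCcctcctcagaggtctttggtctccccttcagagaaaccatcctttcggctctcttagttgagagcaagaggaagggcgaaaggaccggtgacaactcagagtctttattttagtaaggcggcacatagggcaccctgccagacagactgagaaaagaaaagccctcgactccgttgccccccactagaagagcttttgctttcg

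The Cpt1a stretch held none of the 3 marked motifs, the Cpt2 stretch held 3 GC boxes, the Acadvl stretch 2 AGGTCA motifs and the Hadha stretch 1 GC box in reverse. The Acadm stretch, not shown, also held none of them. Its 3 GC boxes lay from the start site on, at positions 1, 11 and 35, so a stretch without these motifs was not particular to Cpt1a. Over windows from 250 bases before to 50 after the start, on both strands, a GC box was present in 33.1% of all 33469 promoters, CCAAT in 37.5% and AGGTCA in 16.2%. None of the 6 windows held the direct repeat bound by PPAR and RXR, which was in 0.0538% of all promoters as spelt with 2 AGGTCA copies and 1 free base between them, and none held TCAAGGTCA, the motif of the estrogen-related receptors (0.433%), which contains AGGTCA. No match says only that these letters are not in the window. The start sites of Hadha (31907801, plus strand) and Hadhb (31907500, minus strand) were 300 bases apart, head to head on chromosome 6, and their 2 windows shared 200 bases.

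Cpt1a stood higher in AIA-cold than in control, AIA and AIA-hot, each by more than any other member. No difference of Cpt1a or of any other member passed the test over all genes. Cpt1a read -0.12, -0.58 and -0.56 on the control arrays, -0.64, 0.29 and -0.70 in AIA, and 0.59, 0.66 and 0.76 in AIA-cold. The 3 AIA-cold arrays lay above all control and all AIA arrays. AIA-cold-WTD read 0.63, 0.29 and 0.02, AIA-hot -0.05, -0.19 and -0.31, and AIA-hot-WTD 0.31, -0.41 and -0.06. AIA-cold-WTD thus reached from the AIA-cold range down to just above control, and the AIA-hot arrays lay below every AIA-cold array.

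The AIA-cold mean of Cpt1a (0.67 ± 0.08, SD, n = 3) was 1.09 log2 units above that of control (-0.42 ± 0.26, SD, n = 3), with a standard error of 0.25 and a 95% interval from 0.54 to 1.63, which is 2.12-fold. The limma p adjusted over all genes was 0.0637, so Cpt1a was not called at 0.05, and 0 of 9 members were called where 0.534% of all genes were. Under 2 of the 11 other settings, scaling to the median and normexp background correction, it was called, with adjusted p-values of 0.0367 and 0.0446, as it was without AIA replicate 2 (0.0378); with slide as a random block the adjusted p was 0.274. Without control 1 the difference was 1.24 (adjusted p = 0.0856). Against AIA the AIA-cold mean was 1.02 higher (SE 0.25, adjusted p = 0.218 by limma), and against AIA-hot 0.85 higher (SE 0.25, adjusted p = 0.618). AIA-cold arrays lay wholly above control for 10.8% of all genes, above AIA for 10.7% and above AIA-hot for 8.27%, which is the background for those separations.

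**Figure D1:**
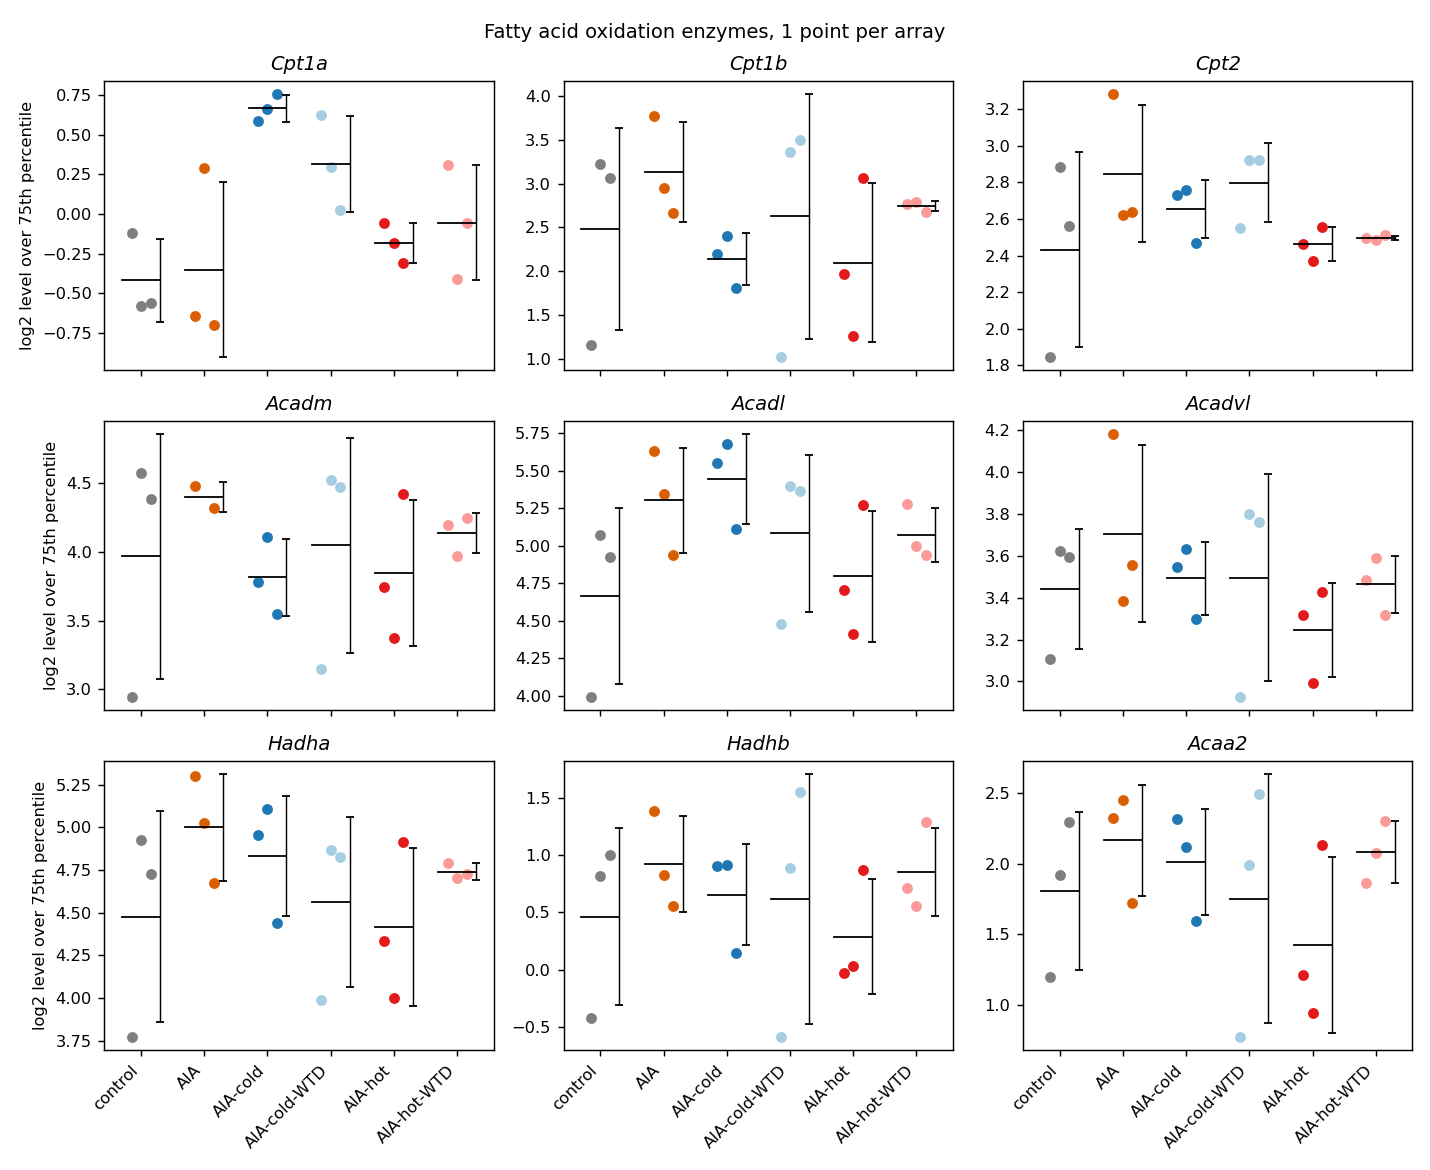
Log2 level relative to the array's 75th percentile (vertical axes, own scale for each gene) of the 9 enzymes in the 6 groups, with 1 point per array, a bar at the group mean and a whisker of 1 SD. The 3 AIA-cold points of Cpt1a lie between 0.59 and 0.76, above every control, AIA and AIA-hot point, while for the other enzymes control 1 and AIA-cold-WTD 1 fall below the rest of their groups.

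In the order of group means Cpt1a ran from AIA-cold through AIA-cold-WTD (0.31 ± 0.30, SD, n = 3), AIA-hot-WTD, AIA-hot and AIA to control. The arrays of every pair of neighbours in this order overlapped, and 2 of the 5 steps, those from AIA-cold to AIA-cold-WTD and from there to AIA-hot-WTD, were larger than the larger SD of the pair. AIA-cold-WTD lay 0.73 above control (SE 0.25, adjusted p = 0.224 by limma) with no overlap of the arrays, which 6.46% of all genes showed, and 0.35 below AIA-cold (SE 0.25, interval -0.90 to 0.19, adjusted p = 0.976). The F test over the 6 groups called 0 of 9 members and 0.0297% of all genes. Cpt1a, with an adjusted p of 0.256 by limma, was the only member under 0.05 before adjustment, as 10.8% of all genes were. In rn4 the Cpt1a probe lies at chr1:205912066-205912125. A second probe under the same symbol, designed to an expressed sequence tag at chr1:205912781-205912840, has its coordinates listed in the opposite direction, and whether it reads the Cpt1a strand was not settled. It had r = 0.929 with the first over the 18 arrays and a smaller difference between AIA-cold and control (0.68, SE 0.23). On this second probe AIA-cold-WTD lay 0.30 above control (SE 0.23), and the arrays of those groups overlapped.

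Clec2d and Il2ra were among the named genes whose pattern over the 18 arrays was most like that of Cpt1a. Clec2d (r = 0.865) is a lectin-like ligand of natural killer cells, and Il2ra (r = 0.849) a chain of the interleukin-2 receptor. Il2ra was dim, at -3.98, -5.66 and -5.19 on the control arrays, where the lowest level well above background was -1.86, -3.90 and -3.72. Il2ra lay below that level on the AIA and AIA-hot arrays too, so its r rests partly on values not well above background. Clec2d read -0.80, -0.87 and -0.77 on the control arrays and -0.25, -0.13 and -0.32 in AIA-cold, with no overlap, as 10.8% of all genes showed. Since Clec2d was picked for its likeness to Cpt1a on these same arrays, its separation is no separate observation.

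Of 9 PPAR targets listed outside beta oxidation 8 were measured, and in AIA-cold against control 1 was called by limma and 4 had an unadjusted p under 0.05, as 18.7% of all genes had. Neither Ucp2 nor Pdk4 was called there. Ucp2, an inner membrane carrier, read -0.26, 0.43 and 0.11 on the control arrays and 1.13, 1.24 and 1.00 in AIA-cold (1.03 higher, SE 0.24, adjusted p = 0.0641). Pdk4, which shuts pyruvate dehydrogenase off and spares glucose, read 0.10, 2.12 and 2.01 against 4.40, 4.23 and 3.42 (2.61 higher, SE 0.70, adjusted p = 0.0891). The AIA-cold arrays lay above all control arrays for both, as they did for 10.8% of all genes. The receptors themselves are only partly measured, since Ppara and the coactivator Ppargc1a did not pass the filter on dim probes.

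The muscle and fat form of the entry enzyme, Cpt1b, took another course. It read 1.15, 3.22 and 3.06 on the control arrays, 3.77, 2.95 and 2.67 in AIA, 2.20, 2.40 and 1.81 in AIA-cold, and 1.02, 3.37 and 3.49 in AIA-cold-WTD. AIA-hot gave 1.97, 1.26 and 3.06, and AIA-hot-WTD 2.76, 2.79 and 2.68. Control 1 and AIA-cold-WTD 1 were far below their groups, and AIA-hot-WTD was tight. The AIA-cold arrays lay below all AIA arrays, which 13.5% of genes showed, and the difference was -0.99 (SE 0.65, interval -2.39 to 0.41). Acadm showed the same separation, over 2 AIA arrays. On a second, dimmer Cpt1b probe the AIA-cold and AIA arrays overlapped, with a difference of -0.44 (SE 0.35). Cpt2, the inner membrane enzyme, had the narrowest range of group means, from 2.43 in control to 2.85 in AIA. Its AIA-hot arrays (2.46, 2.37 and 2.56) lay below all AIA arrays (3.28, 2.62 and 2.64), a separation found for 5.85% of genes, with a difference of -0.38 (SE 0.23, adjusted p = 0.878 by limma).

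Among the dehydrogenases, Acadl, which acts on long and branched chains, was the only member beside Cpt1a under an unadjusted p of 0.05 in AIA-cold against control, where 18.7% of all genes were. Acadl read 3.99, 5.07 and 4.93 on the control arrays and 5.55, 5.68 and 5.11 in AIA-cold. The arrays did not overlap, as for 10.8% of all genes, but the lowest AIA-cold value (5.11) was close to the highest control value (5.07). The difference was 0.78 (SE 0.32, adjusted p = 0.213 by limma). Acadm, the medium-chain enzyme, read 2.94, 4.57 and 4.38 in control and 3.78, 4.11 and 3.55 in AIA-cold, so that its AIA-cold values fell inside the control range. Acadvl, the membrane-bound enzyme for very long chains, read 3.11, 3.62 and 3.59 in control and 3.55, 3.63 and 3.30 in AIA-cold (0.05 higher, SE 0.25). The Acadm spot of AIA 1 had an outlier flag and was left out, so its AIA mean rests on 2 arrays; with that spot kept at 1.89 the AIA difference from control turned from 0.43 to -0.41.

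Hadha and Hadhb are the trifunctional protein subunits. Hadha read 3.77, 4.93 and 4.73 on the control arrays, 5.30, 5.03 and 4.67 in AIA, and 4.33, 4.00 and 4.91 in AIA-hot. Hadhb read -0.42, 0.81 and 1.00 on the control arrays, 1.38, 0.83 and 0.56 in AIA, and -0.03, 0.03 and 0.87 in AIA-hot. In both, control 1 was lowest in its group, AIA 1 highest in its own, and AIA-hot 3 above the other 2 AIA-hot arrays. Over the 18 arrays r between them was 0.873 (rho = 0.754, permutation p = 1e-05, the smallest that the resamples can give, adjusted 4.5e-05). This was not particular to the pair, since Hadha had a higher r with Acadl (0.938) and Hadhb with Acaa2 (0.926). Acaa2, the thiolase that releases acetyl-CoA, read 1.20, 1.92 and 2.30 in control, 2.32, 2.46 and 1.72 in AIA and 1.21, 0.94 and 2.13 in AIA-hot. Its AIA-hot arrays stood in the order seen for Hadha, AIA-hot 2 lowest and AIA-hot 3 highest.

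Probes of a gene did not always follow each other. The Acaa2 pair had r = 0.987 and the Acadvl pair 0.903, but the Cpt1b pair only 0.658, where the second probe was well above background on 13 of 18 arrays. For Hadha, the probe at bases 468441 to 468500 of rn4 chromosome 6_random, which stands for the gene, followed the one that starts at base 1957 of the transcript (r = 0.867) and not the one that starts at base 199 (r = 0.273). The sequences of the latter 2 and of the second Cpt1b probe, which begins at base 263 of its transcript, show which stretches were read. In rn4 the probes that stand for the other members lie at chr7:127737188-127737247 (Cpt1b), chr5:129007858-129007917 (Cpt2), chr2:251867002-251867061 (Acadm), chr9:65613235-65613294 (Acadl), chr10:56856347-56856406 (Acadvl), chr6:26144500-26144559 (Hadhb) and chr18:71605225-71605284 (Acaa2).
Hadha, base 1957: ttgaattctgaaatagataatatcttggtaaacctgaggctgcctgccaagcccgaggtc
Hadha, base 199: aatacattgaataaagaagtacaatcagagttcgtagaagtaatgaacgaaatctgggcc
Cpt1b, base 263: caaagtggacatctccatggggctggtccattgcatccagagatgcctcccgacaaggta

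Across the contrasts no member was called, while few genes were called at all. In AIA against control 0% of the 23606 genes were called and 6.29% had an unadjusted p under 0.05, none of them a member. All 9 members had higher means in AIA, with differences from 0.07 for Cpt1a to 0.65 for Cpt1b and a median of 0.43 against -0.03 over all genes. Acadm was lower with the authors' deposited table or with outlier spots kept. Cpt1a was lower with the mean of its probes, with slide as a fixed block, and without AIA 2, control 2 or control 3. Without control 1 the median was 0.10 and 7 of 9 were higher, and without AIA 1 it was 0.28. Within slide 1, where AIA 1 was beside the 3 controls, 7 of 8 measured members were higher with a median of 0.84; that is the array with the highest values for 4 members.

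In AIA-cold against control the median of the members was 0.20, with 7 of 9 higher; without control 1 it was -0.10, with 3 of 9 higher, and without other single arrays it ran from 0.07 (AIA-cold 1) to 0.45 (control 3). In AIA-hot against control it was -0.12, with 3 of 9 higher and 0.0551% of genes called; that count was 7 with median scaling, 6 with normexp and 7 with slide as a fixed block, 1 without control 1 or AIA-hot 3, and 6 without control 2, control 3 or AIA-hot 2. The median was 0.08 without AIA-hot 2 and -0.31 without AIA-hot 3. With median scaling the median of the members moved from 0.20 to 0.42 in AIA-cold and from -0.12 to 0.08 in AIA-hot, a shift that this scaling gives to all genes alike. These 3 comparisons share the control arrays.

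AIA-cold against AIA called 0% of genes and AIA-hot against AIA 0%, with 9.05% and 5.13% under an unadjusted p of 0.05. Of the members, 1 (Cpt1a) and 0 were under it. In AIA-cold 7 of 9 members had lower means than in AIA, all except Cpt1a and Acadl, with a median of -0.19 against -0.01 over all genes. Without single arrays that median ran from -0.33 to -0.01, and over other settings from -0.20 to 0.02. In AIA-hot 8 of 9 members had lower means than in AIA, all except Cpt1a, with a median of -0.55 against -0.04 over all genes and with differences down to -1.03 for Cpt1b (SE 0.65) and -0.74 for Acaa2 (SE 0.42). With the authors' deposited table or outlier spots kept, Acadm was higher as well. The median was -0.34 without AIA-hot 2 and -0.83 without AIA-hot 3. Within slide 2, AIA-hot 1 and 2 against AIA 2 and 3, the median was -0.68 and again 8 of 9 were lower. AIA-cold against AIA-hot called 0.00847% of genes, and 8 of 9 members had higher means in AIA-cold, with a median of 0.37 against 0.01 over all genes, of which 51.2% were higher. Without single arrays it ran from 0.21 with 7 of 9 higher (AIA-hot 2) to 0.66 with 9 of 9 (AIA-hot 3); it was 0.24 without AIA-cold 1 or AIA-cold 2 and 0.61 without AIA-cold 3. Cpt1a (0.85) and Acadl (0.65, SE 0.32) differed most there.

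**Figure D2:**
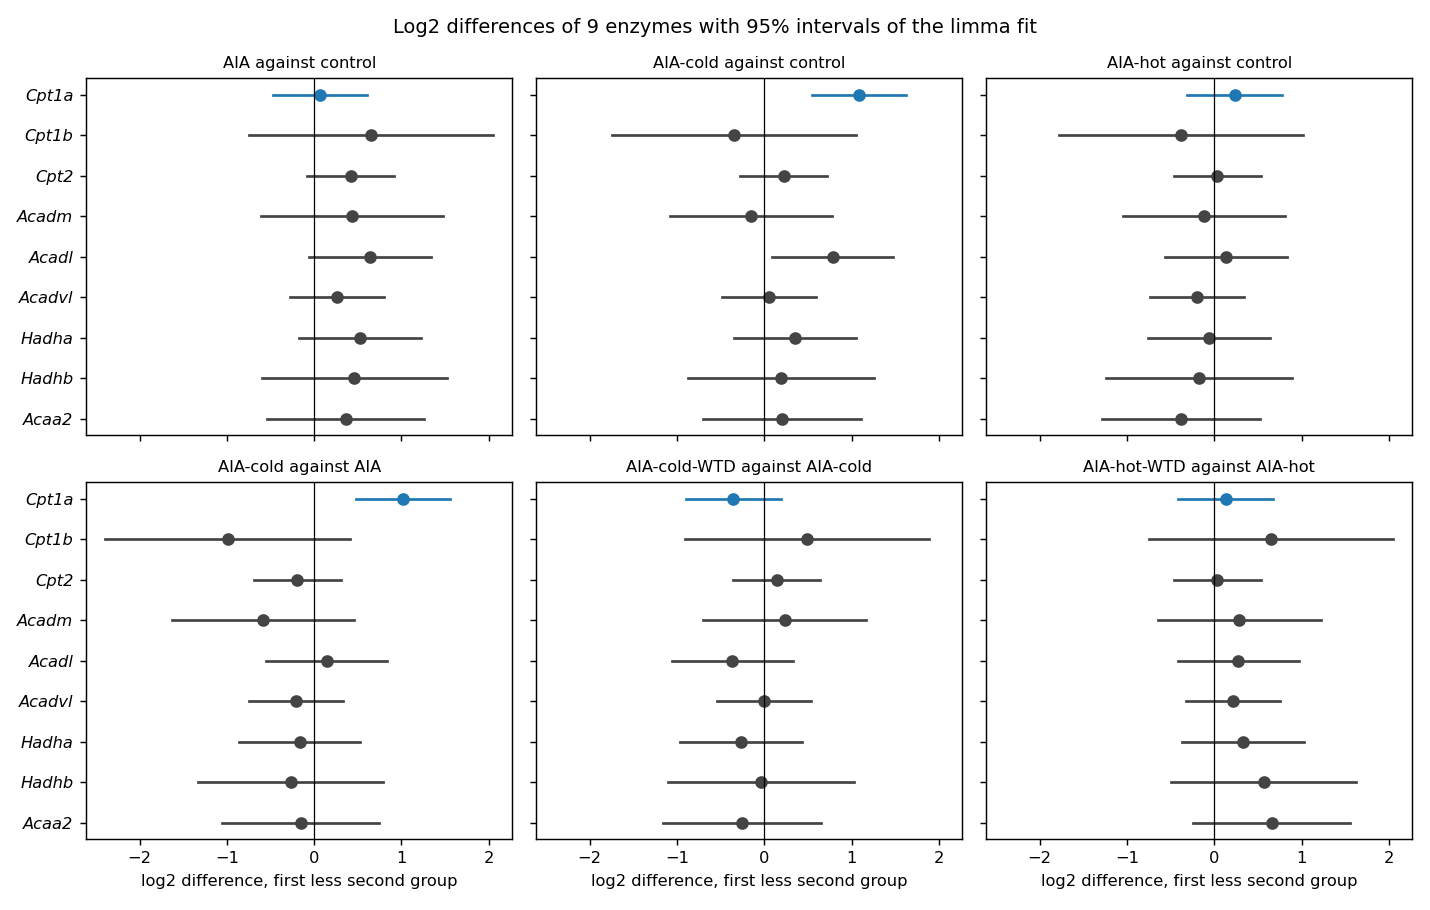
Log2 difference (horizontal axis, first less second group) of each enzyme in 6 comparisons, with the point at the estimate and the line over the 95% interval of the limma fit. The interval of Cpt1a lies above 0 in AIA-cold against control (0.54 to 1.63) and against AIA (0.47 to 1.56), that of Acadl lies above 0 in AIA-cold against control, and all other intervals drawn cross 0.

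No member was called with WTD against the same model without it. AIA-cold-WTD against AIA-cold called 0.00847% of genes and AIA-hot-WTD against AIA-hot 0%, with 6.09% and 2.28% under an unadjusted p of 0.05 and none of them a member. In the cold model the median of the members was -0.04 with 4 of 9 higher, and 0.27 with 7 of 9 higher without AIA-cold-WTD 1. In the hot model it was 0.29 with 9 of 9 higher, Cpt2 by 0.03 and Acaa2 by 0.66 (SE 0.42). The median was 0.12 with 8 of 9 higher without AIA-hot 2 and 0.57 without AIA-hot 3. With slide as a fixed block 2 of 9 were higher and the median was -0.06, the value within slide 3 of AIA-hot 3 against the 3 AIA-hot-WTD arrays. Cpt2 was also lower with median scaling or slide as a random block. Within slide 4 AIA-cold-WTD 1 was below the AIA-cold mean for 9 of 9 members, with a median of -0.84. The difference of the WTD effects, cold less hot, called 0% of genes, with 4.19% under an unadjusted p of 0.05, and ran from -0.91 for Acaa2 (SE 0.60, interval -2.19 to 0.36) to 0.11 for Cpt2. Against control, AIA-cold-WTD called 0.0297% and AIA-hot-WTD 0.0805% of genes, with member medians of 0.15 and 0.26; without control 1 these were -0.27 and -0.09.

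Apart from Cpt1a, the enzymes varied together from array to array, also within groups. Control 1 and AIA-cold-WTD 1 each held the lowest value of 4 of the 9, AIA-hot 1 and 2 were below the mean of all 8 enzymes other than Cpt1a, and AIA-cold 3 below that of 7. AIA 1 held the highest value of 4. The 28 pairs among the 8 had r from 0.557 to 0.965 with a median of 0.799 (rho 0.527 to 0.931), and all 28 had an adjusted permutation p under 0.05 among 36 pairs. Without the 2 farthest arrays r ran from 0.485 to 0.948, without control 1 from 0.485 to 0.965, and over deviations from the group means from 0.605 to 0.987. The 8 pairs with Cpt1a had r from -0.416 to 0.178 and none passed; over deviations from the group means they ran from -0.636 to -0.330.

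**Figure D3:**
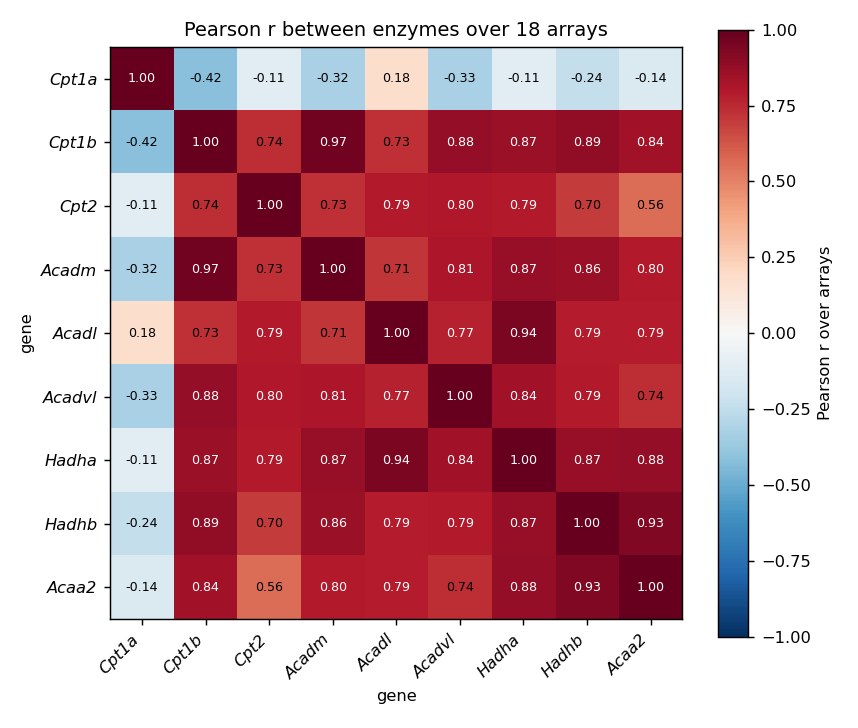
Pearson r over the 18 arrays (17 for Acadm) between each pair of enzymes, in a grid with the value in each cell and colour from -1 (blue) to 1 (red). The 8 enzymes other than Cpt1a form a block from 0.557 to 0.965, and the row of Cpt1a runs from -0.416 to 0.178.

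Markers of fat and of mitochondria moved with the same 8 enzymes. The mean of the 10 adipocyte markers ran from 1.48 on AIA-cold-WTD 1 and 2.48 on control 1 to 4.80 in AIA; 9 or 10 of the 10 were well above background on every array of each group, and Lep was not above background in AIA-cold. The r of this mean with Hadha was 0.906 (rho = 0.849, permutation p = 1e-05 for r, adjusted 3.86e-05), with Cpt1b 0.880, with Cpt2 0.580, and with Cpt1a -0.250 (adjusted p = 0.383). Without AIA-cold-WTD 1 and control 1, the 2 arrays farthest from the median, r was 0.899 for Hadha, 0.820 for Cpt1b and 0.568 for Cpt2. The mean of 17 mitochondrial markers had r = 0.956 with Cpt1b (rho = 0.926), 0.765 with Cpt2 and -0.496 with Cpt1a (permutation p = 0.0357, adjusted 0.0566; -0.281 without AIA 1 and AIA-cold-WTD 1). By Spearman's rho the relation with Cpt1a passed (-0.562, adjusted permutation p = 0.0261). Of 27 relations, those of the 8 enzymes with adipocyte and with mitochondrial markers, 16 in all, had an adjusted p of Pearson's r under 0.05. Among these 16, Acadl with mitochondrial markers did not pass by Spearman's rho (0.445, adjusted permutation p = 0.0879).

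Skeletal muscle markers, 11 of 12 measured, gave r from 0.03 for Acadl to 0.42 for Hadhb over the 8 enzymes and -0.365 for Cpt1a, none of which passed. By Spearman's rho Hadhb passed (0.571, adjusted permutation p = 0.0242). Their level was highest on AIA-hot-WTD 3 (3.52). Brown fat markers were mostly dim: Ucp1 and Elovl3 were not above background in any group and 3 of 6 were measured. In bulk tissue fewer cells of a type and less RNA per cell cannot be told apart, and the part of fat or muscle in the enzyme levels was not tested. Beside the Cpt1a difference, T and NK cell markers ran from -3.45 to -2.41 in control and -2.63 to -2.17 in AIA-cold, with Cd3e and Cd2 not above background in control, neutrophil markers from -0.57 to 0.28 and 1.00 to 2.62, and macrophage markers from 0.47 to 2.70 and 2.11 to 2.44. In AIA-hot, where Cpt1a read from -0.31 to -0.05, T and NK cell markers ran from -2.20 to -1.22, above the AIA-cold mean of -2.40. Neutrophil markers ran from 0.99 to 1.76 there and macrophage markers from 1.93 to 2.24. The part of these cells in the Cpt1a difference was not tested either.

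**Figure D4:**
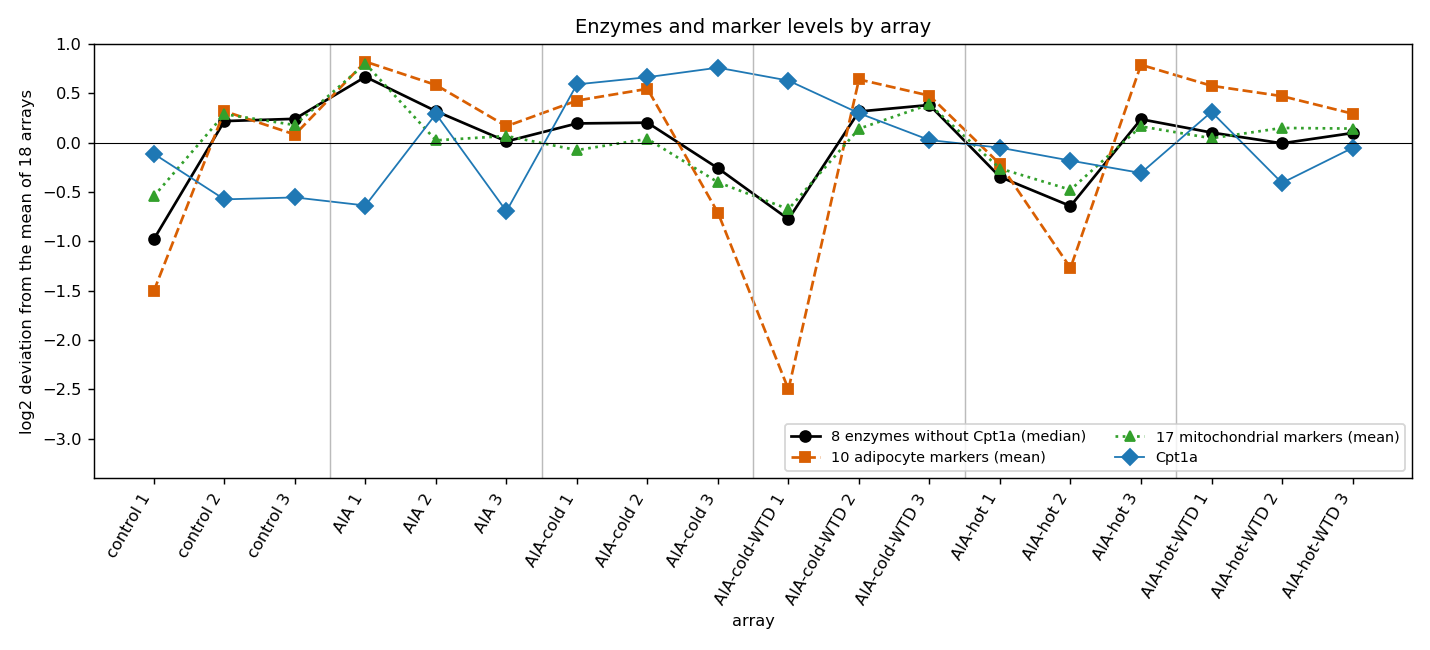
Deviation from the mean of 18 arrays (vertical axis, log2) on each array (horizontal axis, groups divided by grey lines) of the median of the 8 enzymes other than Cpt1a, the mean of 10 adipocyte markers, the mean of 17 mitochondrial markers, and Cpt1a. The enzymes and both marker lines dip on control 1, AIA-cold-WTD 1 and AIA-hot 2, while Cpt1a is high on the 3 AIA-cold arrays and on AIA-cold-WTD 1.

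Among the genes most like Cpt1b, of 11962 named genes searched, were Ndufa9 (r = 0.970), a complex I subunit, and Atp5f1c (0.970), a subunit of ATP synthase. Acadl was nearest to Eci2 (0.975) and Hadha to Timm10b (0.978) and Decr1 (0.977), where Eci2 and Decr1 are auxiliary enzymes for unsaturated fatty acids. Hadhb was nearest to Grpel1 (0.978), Acadm to Gsta4 (0.989, 17 arrays), Acadvl to Car5b (0.961), Cpt2 to Mrps31 (0.945) and Acaa2 to Acbd4 (0.934).

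The other genes of the pathway were taken from lists by function. Of 16 further mitochondrial beta oxidation enzymes, all measured, 16 had higher means in AIA than in control (median 0.62), 16 lower means in AIA-hot than in AIA (median -0.65) and 12 higher means in AIA-cold than in control (median 0.36), with 0 called by limma in any of these and 0, 1 and 2 under an unadjusted p of 0.05 (6.29%, 5.13% and 18.7% of all genes). The last 2 were Ech1, which moves double bonds in unsaturated chains (1.34 higher, SE 0.34, adjusted p = 0.0776 by limma), and Eci2 (0.95, SE 0.40). Ech1 read 3.26, 3.94 and 3.88 in control against 5.19, 5.40 and 4.52 in AIA-cold, with no overlap, as 10.8% of all genes showed. The shared direction of the 16 enzymes was not particular to them. All 17 mitochondrial and all 10 adipocyte markers also had higher means in AIA than in control and lower means in AIA-hot than in AIA. Of all genes, 46.5% were higher in AIA than in control and 43.7% higher in AIA-hot than in AIA. Of the 15 genes of the carnitine shuttle and of fatty acid uptake and activation, 14 were measured and 0 called; the smallest p in AIA-cold against control was that of the fatty acid transporter Slc27a1 (1.03 higher, SE 0.31, adjusted p = 0.110 by limma). Peroxisomal oxidation (10 of 11 measured, median 0.15) and the regulators (14 of 17 measured, median 0.11) had 0 called there, with 0 and 2 under an unadjusted p of 0.05. The latter 2 were Tfam (0.52 higher, SE 0.20) and Ppard (0.80 higher, SE 0.32). Ppard was dim, at -3.92, -3.37 and -4.49 on the control arrays. On control 1 and control 3 that was below the lowest level well above background (-1.86 and -3.72), so its difference rests partly on values not well above background.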

How the data were processed

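Total RNA of knee synovial tissue was hybridised to 18 single-colour Agilent rat arrays, 3 for each of 6 groups. The authors deposited scanner output of Agilent Feature Extraction 10.7 with a processed signal intensity for each spot, per the file headers. They also deposited a series table of normalized values, taken here as log2 because it correlates at 0.989 to 1.000 with the log2 processed signal; its scale and normalization are not stated. Per the submitters' processing notes limma was used, with no version. Probe coordinates (rn4) are those of the files, which carry no exon or UTR annotation.

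Here, flagged outlier spots and control spots were dropped, replicate spots averaged as log2 values, and each array scaled to its 75th percentile of gene probes. A probe was kept if at least 1 group had it well above background on its 3 arrays (28271 of 41012), and a gene was read from its brightest kept probe (23606 genes and transcripts). The RefSeq gene table named 18028 probes by accession; other names came from its symbols or the files. One limma fit (version 3.58.1, R 4.3.3) covered the 18 arrays, with 12 residual and 2.29 prior degrees of freedom. Called means an adjusted p (Benjamini-Hochberg, over all genes of a comparison) under 0.05; the fit was tested on simulated data. Marker levels are means of a list's measured genes. Correlations carry two-sided permutation p-values from 100000 resamples, adjusted over 36 pairs or 27 relations.

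The members and all gene lists were chosen with earlier results of these data known. All members are named, with up to 3 genes of a list with the smallest p in a comparison, any called gene, and up to 3 genes of highest r per member. Some genes that this rule names are not reported here. Alternatives were background correction, scaling, the deposited table, filters, choice of probe, slide, the groups in the fit, and each array left out. The number in each title as a block was added after seeing the data. The number of arrays limits the precision.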

Additional observations from a re-analysis of the deposited data

How the results depend on the processing

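The count of members called by limma was 0 in every pairwise comparison under the other settings and without single arrays, except in AIA-cold against control. There it was 1, Cpt1a, with median scaling and 1, again Cpt1a, with normexp background correction, and it ran from 0 to 1 without single arrays. The Cpt1a difference ran from 0.88 to 1.30 over 11 other settings and from 1.01 to 1.24 without single arrays. The number of genes called in that comparison was 126; it was 38 with the title numbers as a block, 0 with slide as a random block or with the 2 groups alone, 222 with quantile normalization, 227 with the deposited table, 280 with normexp and 206 with no filter on dim probes, and from 0 (without AIA-cold 2) to 297 (without control 2) without single arrays. In AIA-cold-WTD against control 7 genes were called, and from 0 to 3377 over other settings, the most with no filter on dim probes. AIA-hot against AIA called 0 genes, and 142 with slide as a fixed block; AIA-cold-WTD against AIA-cold called 2, and 32 with that block or 82 without AIA-cold-WTD 1. The other counts were 0 to 13 (AIA against control, 0 as reported), 0 to 61 (AIA-hot against control, 13), 0 to 85 (AIA-hot-WTD against control, 19), 0 to 76 (AIA-cold against AIA, 0), 0 to 5 (AIA-cold against AIA-hot, 2), 0 to 6 (AIA-hot-WTD against AIA-hot, 0) and 0 to 9 (the difference of the WTD effects, 0). Of 1152 member differences under other settings 81 changed sign, 22 of them among the 63 with slide as a fixed block, and of 1782 without single arrays 79 did. Titles carry numbers that groups partly share and that the labels tie to no litter, batch or day. Of 19 pairs of arrays with the same number in different groups, 7 had deviations from the group means that correlated above 0.1 (-0.58 to 0.42). Of 116 pairs with different numbers 43 did (-0.50 to 0.54), and 1 of 18 arrays correlated best with its own number. Whether arrays with the same number share anything else cannot be told from these correlations. With that number as a replicate block, an alternative chosen after seeing the data, 0 members were called in each comparison and the Cpt1a difference between AIA-cold and control was 0.99 (adjusted p = 0.126 by limma). Of 99 member differences 33 changed sign, among them 8 of 9 in AIA-hot-WTD against AIA-hot (median -0.41).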

Other observations

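Acaca, the enzyme that makes malonyl-CoA, the inhibitor of carnitine palmitoyltransferase I, read 3.92, 4.39 and 3.79 in AIA-cold and 7.75, 4.95 and 6.86 in AIA. The AIA-cold arrays lay below all AIA arrays, which 13.5% of genes showed, and the difference was -2.48 (SE 0.89, adjusted p = 0.417 by limma), not called. AIA-cold-WTD read 3.25, 6.08 and 6.97, and AIA-hot 5.05, 4.15 and 5.68, which overlapped both AIA-cold and AIA. Acacb, the listed gene of another form of this enzyme, did not pass the filter on dim probes. Whether the Acaca level bears on the oxidation enzymes was not tested. Under WTD in the cold model, Ech1 differed from AIA-cold by -0.92 (SE 0.34, adjusted p = 0.692 by limma), with arrays at 3.53, 4.48 and 4.33.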
